A study of Mus musculus with 4 samples.

Results

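Adipocyte identity and lipid storage genes were followed in back skin of mice with imiquimod-driven inflammation. The group is a list of 40 gene symbols, and all 40 were found by exact symbol among the 20611 genes of each count table. Male BALB/c mice aged 8 to 9 weeks all received 5% imiquimod (IMQ) cream, a Toll-like receptor agonist that gives psoriasis-like inflammation, at 47 mg per day on days 1 to 5. One group received the cream alone (IMQ, 1 library), one also received a lotion without the compound about 1 h after the cream (IMQ+VEH, 2 libraries, replicates 1 and 2), and one received that lotion with IDMF, which the series' title names as a dimethyl fumarate pro-drug (IMQ+IDMF, 1 library). Whole back skin was taken on day 6, so each library mixed epidermis, dermis, glands, vessels, dermal fat and muscle. All groups carried imiquimod, and no skin without it was analysed here. The series' design calls the 4 libraries independent biological replicates. For replicate 2 of IMQ+VEH the core facility's sample number is far from the other numbers, and whether that marks a batch is not stated.

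Adipocytes store fatty acids as triglyceride in a single large droplet. Lipid is brought in from the blood or made in the cell, is esterified onto glycerol, and is sealed in the droplet by perilipins and CIDE proteins until lipases release it. The nuclear receptor PPAR-gamma, with C/EBP-alpha, switches this programme on, and mature adipocytes also secrete hormones such as adiponectin and leptin. In mouse skin a layer of dermal adipocytes lies below the dermis, between the lower hair follicles and the thin skin muscle. Sebaceous glands, muscle and vessels use several of the same enzymes and transporters.

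Promoters were looked at because 21 of the 39 genes tested shared 1 order of the libraries, against 8.63% of all tested genes. RefSeq promoter windows (GRCm38.p6) were found for 31 of the 40 genes, and the 250 bases before each start were searched on both strands. A C/EBP motif, TTGCNNAA, was found in the windows of Lep and Plin1, 2 of 31 (6.5%), against 9.55% of 27025 promoters. The box CCAAT was found in 8 of 31 (25.8%), against 34.46% of all promoters. The E-box CACGTG was found in 2 of 31 (Lipe and Mgll), against 6.05%, and the box TATAAA in 2 of 31 (Cebpa and Cav1), against 12.97%. The sterol element TCACNCCAC was found in 1 of 31 (Mlxipl), against 1.04%. A PPAR response element of the direct repeat type (DR1) was found in 0 of 31 windows and in 0.33% of all promoters. An absent match says only that these letters are not in this window. By GENCODE M21, 5 of the 31 windows (Pparg, Lipe, Plin1, Thrsp and Plin5) lie by over 30 bases inside an exon of the same gene, so that a distance from the RefSeq start is not one from the GENCODE start. The windows of leptin and adiponectin are shown as those of the best-known adipocyte hormones, chosen after the matches were seen. Other listed genes hold matches nearer to the start than that of Lep, as Plin4 does at 18 to 14 bases before it. The last match of Adipoq, at 7 to 3 bases before the start, was the nearest among the listed genes. Capitals mark TTGCNNAA in Lep (chr6:29059971-29060220, plus strand) and CCAAT or its reverse complement ATTGG in Adipoq (chr16:23146286-23146535, plus strand).
Lep: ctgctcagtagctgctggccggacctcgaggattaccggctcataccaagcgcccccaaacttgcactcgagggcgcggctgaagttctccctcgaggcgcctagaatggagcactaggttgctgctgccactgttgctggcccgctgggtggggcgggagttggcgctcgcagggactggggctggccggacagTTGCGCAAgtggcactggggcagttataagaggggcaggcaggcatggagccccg
Adipoq: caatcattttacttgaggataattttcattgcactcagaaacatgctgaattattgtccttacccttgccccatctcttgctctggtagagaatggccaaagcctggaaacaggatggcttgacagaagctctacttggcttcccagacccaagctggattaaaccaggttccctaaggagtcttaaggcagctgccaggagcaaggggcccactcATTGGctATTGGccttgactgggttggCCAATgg

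Total counts were 21167149 to 26639628 per library, and the 8 keratinocyte genes of the fixed list had summed FPKM of 18089 to 21938 per library. The 40 genes took 0.477% of the counts in IMQ, 1.37% and 0.974% in IMQ+VEH replicates 1 and 2, and 1.19% in IMQ+IDMF. Of the 40 genes, 39 passed the filter on low counts and were tested, each with at least 21 counts in every library. The gene that did not pass was Ucp1, the uncoupling protein that defines heat-producing brown fat, with 0, 1, 0 and 0 counts. The detection floor of 3 counts, which covers counting error only, was 0.107 to 0.146 CPM (counts scaled to TMM library size). Levels below are CPM unless FPKM, the deposited length-corrected value, is named.

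By FPKM the order of the genes was much alike in the 4 libraries. Fabp4, the fatty acid carrier protein of adipocytes, ranked first in every library, at 558 in IMQ, 1900 and 1338 in IMQ+VEH and 1448 in IMQ+IDMF. Car3, a carbonic anhydrase abundant in fat and muscle, and Cfd, the serum protease adipsin, took ranks 2 and 3 in each library. Lep, Aqp7, Plin5, Nnat, Adrb3 and Mlxipl held ranks 34 to 39 in every library. The regulator Pparg stood at rank 30 or 31, with 3.67 FPKM in IMQ, 13.7 and 11.3 in IMQ+VEH and 12.9 in IMQ+IDMF. Ranks moved most for Acsl1, from 6 in IMQ to 16, 18 and 17 in IMQ+VEH and IMQ+IDMF, and for Cidec, from 18 to 5, 10 and 9.

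Setting IMQ+VEH against IMQ shows skin with and without the vehicle lotion under the same imiquimod treatment. Of the 39 genes tested, 10 were higher in IMQ+VEH and 0 were lower by edgeR's quasi-likelihood test at an adjusted p under 0.05, where 0.338% of all 15068 tested genes were called higher and 0.325% lower (0.664% in either direction). At an unadjusted p under 0.05 the counts were 28 of 39 and 8.81% of all genes. The 10 were the droplet proteins Plin1 and Cidec, the adipokines Adipoq and Retn, the lipogenic genes Agpat2, Pck1 and Thrsp, the lipase gene Pnpla2, the regulator Pparg and Adig. DESeq2 called 19 of the listed genes and edgeR without a filter on low counts 21, these 10 among them in both cases, and total counts as library sizes left 8. The fitted folds of the 10 ran from 2.78 (Agpat2) to 7.06 (Pck1). The median log2 difference over the 39 genes was 1.38, against -0.01 over all tested genes. It was 1.55 for IMQ+VEH replicate 1 and 1.11 for replicate 2, so that replicate 2 lay nearer to IMQ. Only the IMQ+VEH group is replicated, and the single IMQ library was assumed to vary like that pair. In whole skin, fewer adipocytes and less RNA per adipocyte cannot be told apart.

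**Figure D1:**
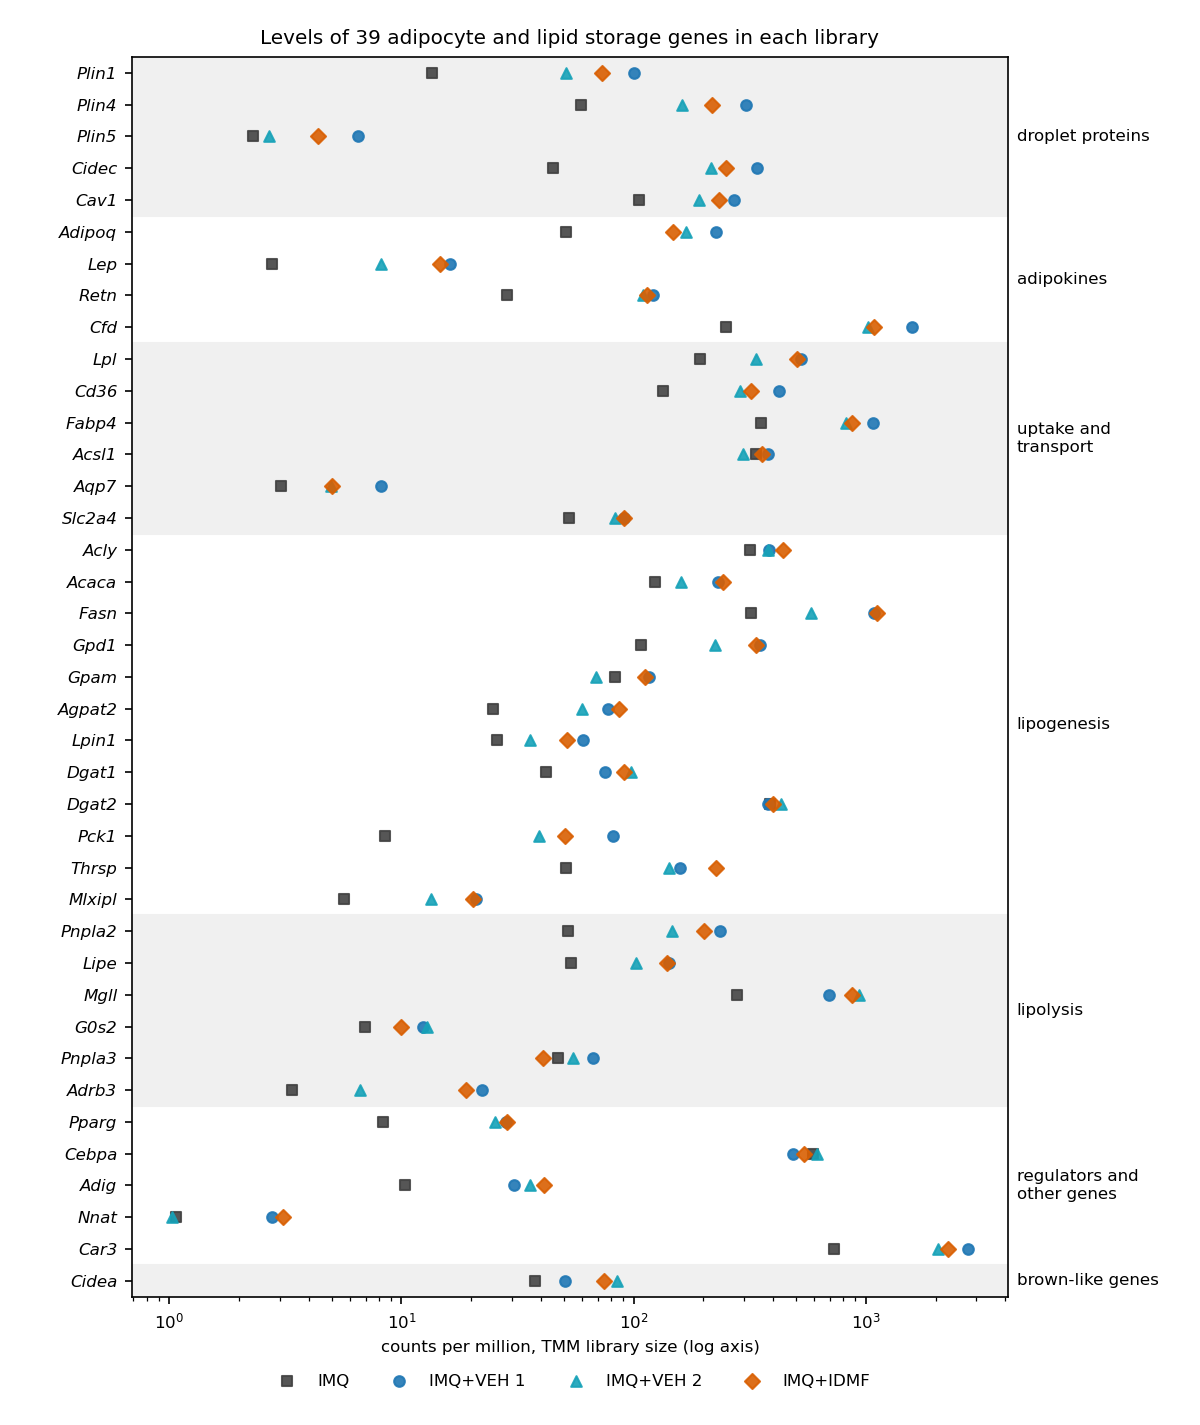
Level of each of the 39 tested genes in each library, in CPM on a log axis, with genes in rows grouped by role. Each symbol is 1 library, and the IMQ library (square) lies lowest in 33 of the 39 rows.

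IMQ was the lowest of the 4 libraries for 33 of the 39 genes, against 28.9% of all tested genes, and the highest for 0, against 30.1%. IMQ+VEH replicate 1 was the highest for 25 (29% of all genes), replicate 2 for 6 (21.7%) and IMQ+IDMF for 8 (19.2%). Replicate 2 was below replicate 1 for 32 of the 39 genes, against 53% of all tested genes. Both IMQ+VEH libraries were above IMQ for 34 genes, against 33.6%, and 22 had IMQ lowest with replicate 1 highest, against 14.2%. The order IMQ, IMQ+VEH replicate 2, IMQ+IDMF, IMQ+VEH replicate 1, from low to high, was held by 21 of the 39 genes and by 8.63% of all tested genes. Among 11 endothelial marker genes IMQ was lowest for 9 and replicate 1 highest for 11, so an order of this kind was not particular to the list. The list was put together with earlier results of these data known, so these counts describe it and are no independent test.

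Droplet proteins coat and seal the lipid droplet. Plin1, the perilipin that guards the droplet of adipocytes (chromosome 7, 79720218 to 79732903, GRCm38), had 13.5 CPM in IMQ, 99.96 and 50.9 in IMQ+VEH replicates 1 and 2, and 72.8 in IMQ+IDMF. The IMQ library was below the 3 others, and the IMQ+VEH pair itself differed by a ratio of 0.510. The log2 fold change of IMQ+VEH over IMQ was 2.49 (SE 0.41, adjusted p = 0.0157). Cidec, which fuses droplets into a large one (chromosome 6, 113424634 to 113435760), had 45.1 CPM in IMQ, 339 and 215 in IMQ+VEH and 250 in IMQ+IDMF. The IMQ library was again below the 3 others, as for 28.9% of all tested genes. For both genes IMQ+IDMF lay between the IMQ+VEH libraries. The log2 fold change of Cidec in IMQ+VEH over IMQ was 2.62 (SE 0.39, adjusted p = 0.00910).

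The other droplet genes of the list did not pass the threshold. Plin4, a further perilipin of fat cells, had 59.4 CPM in IMQ, 306 and 162 in IMQ+VEH and 217 in IMQ+IDMF, with a log2 fold change of 1.98 (SE 0.41, adjusted p = 0.0551). Its exons overlap those of Hdgfl2 on the other strand, and the sources used here do not state the strand setting of the counting. Cav1, the caveolin of fat cells and vessels, had a log2 fold change of 1.14 (SE 0.34). Plin5, the perilipin of tissues that burn fat, was the least separated: 2.29 CPM in IMQ and 2.68 in IMQ+VEH replicate 2, against 6.49 in replicate 1.

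Adipokines are the hormones and secreted proteins of fat cells. Adipoq, adiponectin (chromosome 16, 23146536 to 23158028), had 51.3 CPM in IMQ, 227 and 168 in IMQ+VEH and 147 in IMQ+IDMF. It was higher in IMQ+VEH by a log2 fold change of 1.94 (SE 0.33, adjusted p = 0.0189). Retn, resistin (chromosome 8, 3655770 to 3660110), had 28.5 CPM in IMQ, and 121, 110 and 114 in IMQ+VEH replicates 1 and 2 and IMQ+IDMF. Its 3 lotion-treated libraries lay closer together than those of any other adipokine, and it had the smallest adjusted p of the 39 genes (log2 fold change 2.02, SE 0.29, adjusted p = 0.00762).

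Cfd and Lep had folds of like size with a wider spread. Cfd (249 CPM in IMQ, 1583 and 1028 in IMQ+VEH, 1086 in IMQ+IDMF) had a log2 fold change of 2.39 (SE 0.53, adjusted p = 0.0832). Lep, leptin, the hormone that reports the size of fat stores, had 2.76 CPM in IMQ, 16.1 and 8.15 in IMQ+VEH and 14.7 in IMQ+IDMF. Its log2 fold change was 2.14 (SE 0.52, adjusted p = 0.118). For both genes IMQ was the lowest library.

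**Figure D2:**
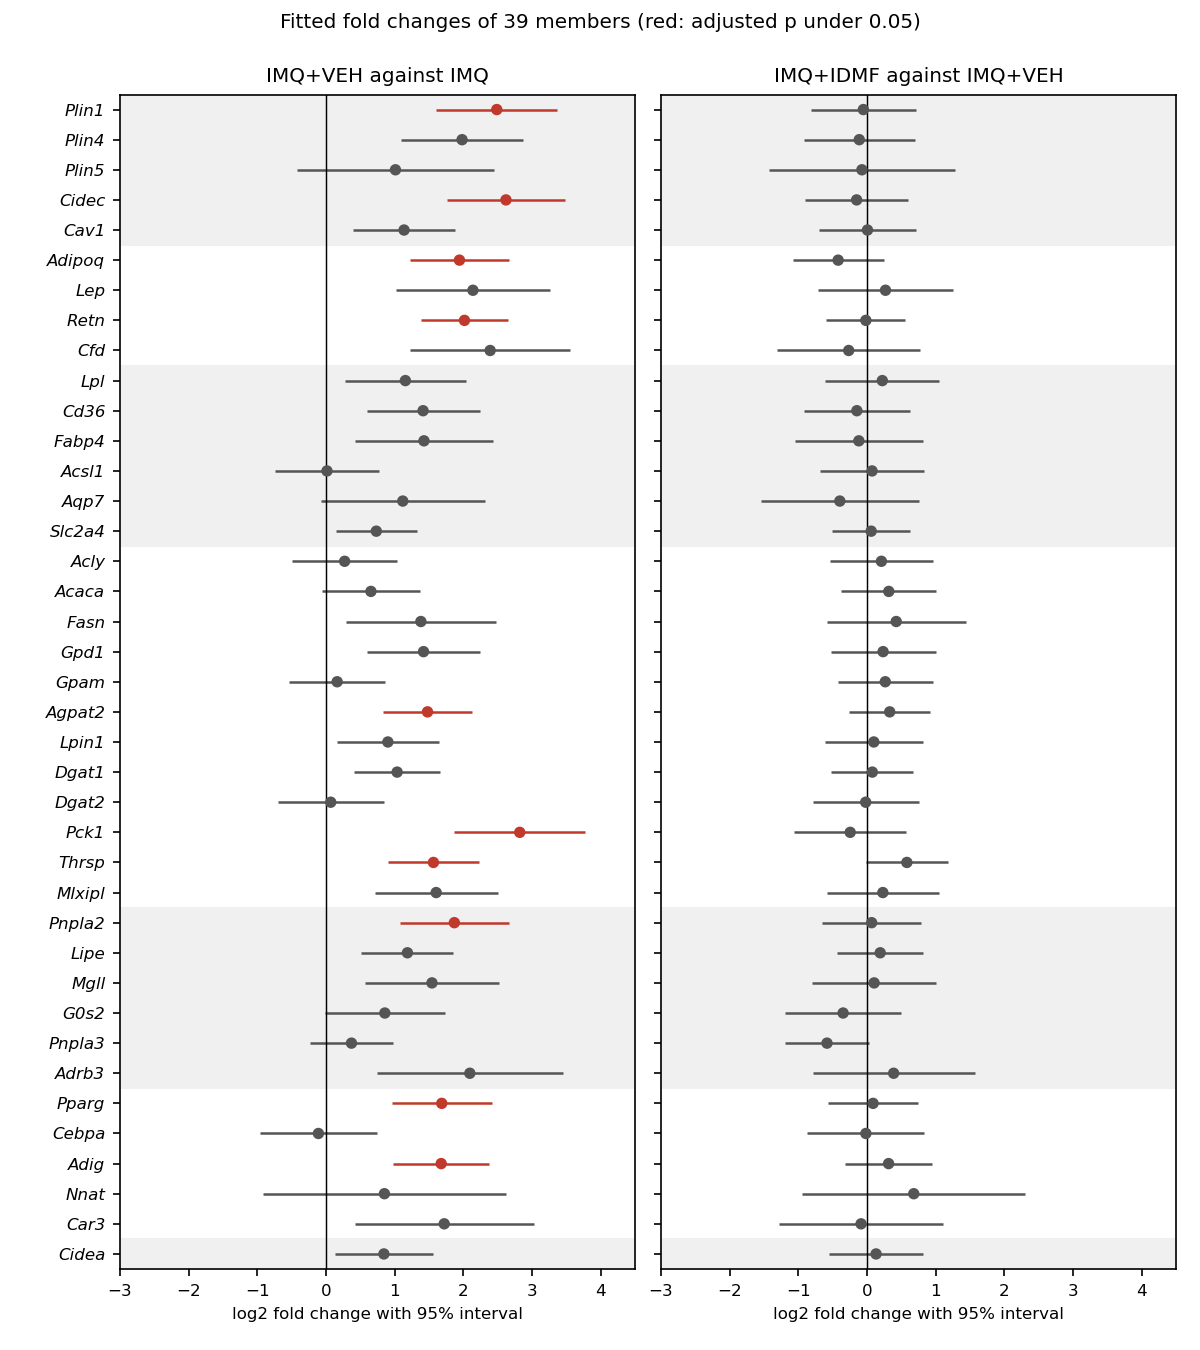
Fitted log2 fold change (point) and its 95% interval (line) for each of the 39 tested genes, IMQ+VEH against IMQ on the left and IMQ+IDMF against IMQ+VEH on the right. Red marks an adjusted p under 0.05, which 10 genes reached on the left and 0 on the right.

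Uptake and transport genes bring fatty acids, glycerol and glucose across the membrane. None of the 6 passed the threshold. Fabp4 had 354 CPM in IMQ, 1077 and 825 in IMQ+VEH and 876 in IMQ+IDMF (log2 fold change 1.43, SE 0.46, adjusted p = 0.298). Cd36, a fatty acid receptor that vessels and macrophages also carry, had 133 CPM in IMQ, 422 and 287 in IMQ+VEH and 321 in IMQ+IDMF (1.41, SE 0.38, adjusted p = 0.170). Both were lowest in IMQ. Lpl, the lipase that frees fatty acids from blood lipoproteins, had 194 CPM in IMQ, 526 and 336 in IMQ+VEH and 504 in IMQ+IDMF (1.15, SE 0.41, adjusted p = 0.360). The log2 fold change was 0.73 (SE 0.27) for Slc2a4, the insulin-driven glucose carrier of fat and muscle, and 1.12 (SE 0.55) for Aqp7, the glycerol channel. Acsl1, which links fatty acids to coenzyme A, stood apart from these. It had 335 CPM in IMQ, 380 and 297 in IMQ+VEH and 357 in IMQ+IDMF, so that IMQ lay between the IMQ+VEH libraries.

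Lipogenesis takes carbon from glucose to fatty acids and on to triglyceride. Pck1, phosphoenolpyruvate carboxykinase, which supplies glycerol phosphate in fat (chromosome 2, 173153048 to 173159273), had the largest fitted fold of the 39 genes. It had 8.51 CPM in IMQ, 81.2 and 38.97 in IMQ+VEH and 50.8 in IMQ+IDMF (log2 fold change 2.82, SE 0.44, adjusted p = 0.0116). Thrsp, the lipogenic protein Spot 14 (chromosome 7, 97412938 to 97417730), had 51.0 CPM in IMQ, 159 and 143 in IMQ+VEH and 226 in IMQ+IDMF (1.56, SE 0.30, adjusted p = 0.0392). For both genes IMQ was the lowest library. Agpat2, which adds the next acyl chain during triglyceride synthesis (chromosome 2, 26593057 to 26604417), had 24.7 CPM in IMQ, 77.6 and 59.9 in IMQ+VEH and 86.6 in IMQ+IDMF (1.48, SE 0.30, adjusted p = 0.0473, and 0.0620 with total counts as library sizes). Its exons overlap those of the endothelial gene Egfl7 on the other strand, which had 14.8 CPM in IMQ, 29.5 and 21.8 in IMQ+VEH and 23.5 in IMQ+IDMF. Without a known strand setting, reads of the overlap cannot be told apart.

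The enzymes of fatty acid synthesis itself were not alike in their difference from IMQ. Fasn, fatty acid synthase, had 320 CPM in IMQ, 1086 and 582 in IMQ+VEH and 1121 in IMQ+IDMF (log2 fold change 1.38, SE 0.50, adjusted p = 0.391). Acly, which makes cytosolic acetyl-CoA, had 317 CPM in IMQ, 385 and 380 in IMQ+VEH and 443 in IMQ+IDMF (0.27, SE 0.35, not past the threshold). Fasn thus separated the IMQ+VEH pair by a ratio of 0.536, while Acly did not. The log2 fold change was 0.65 (SE 0.33) for Acaca, acetyl-CoA carboxylase, and for Mlxipl, the carbohydrate-sensing regulator ChREBP, it was 1.60 (SE 0.41, adjusted p = 0.149).

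The other enzymes of triglyceride synthesis were split. Gpd1, which makes glycerol phosphate, had a log2 fold change of 1.42 (SE 0.38, adjusted p = 0.170), Lpin1, a phosphatidate phosphatase, 0.90 (SE 0.34) and Dgat1, an acyltransferase of the last step, 1.03 (SE 0.29). Dgat2, the other such acyltransferase, had 387 CPM in IMQ, 381 and 430 in IMQ+VEH and 400 in IMQ+IDMF, with a 95% interval of the fold from 0.614 to 1.79. Gpam, the first acyltransferase of the path, had 82.9 CPM in IMQ, 116 and 69.0 in IMQ+VEH and 112 in IMQ+IDMF. For both genes IMQ lay inside the range of the other libraries.

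Lipolysis genes release stored fat. Pnpla2, adipose triglyceride lipase (chromosome 7, 141455198 to 141460743), had 52.4 CPM in IMQ, 236 and 146 in IMQ+VEH and 201 in IMQ+IDMF (log2 fold change 1.87, SE 0.36, adjusted p = 0.0409). Lipe, hormone-sensitive lipase, had 53.6 CPM in IMQ, 141 and 102 in IMQ+VEH and 139 in IMQ+IDMF (1.18, SE 0.31, adjusted p = 0.153). Only the first passed the threshold, and both were lowest in IMQ. Mgll, the lipase of the last step, had 279 CPM in IMQ, 692 and 931 in IMQ+VEH and 873 in IMQ+IDMF (1.54, SE 0.45, adjusted p = 0.227). Adrb3, the adrenergic receptor that turns lipolysis on in fat cells, had 3.39 CPM in IMQ, 22.2 and 6.63 in IMQ+VEH and 19.0 in IMQ+IDMF (2.09, SE 0.62, adjusted p = 0.239). Its IMQ+VEH pair, with a ratio of 0.301, was the widest among the 39 genes. For G0s2, an inhibitor of adipose triglyceride lipase, the log2 fold change was 0.86 (SE 0.40), and for Pnpla3, a relative of that lipase, 0.37 (SE 0.27).

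The regulators went separate ways. Pparg (chromosome 6, 115360951 to 115490399) had 8.31 CPM in IMQ, 28.1 and 25.4 in IMQ+VEH and 28.4 in IMQ+IDMF, with the 3 lotion-treated libraries close together. Its log2 fold change was 1.68 (SE 0.33, adjusted p = 0.0452, with 0.0533 without IMQ+IDMF in the fit and 0.0764 with total counts as library sizes). Cebpa, which the epidermis also expresses, had 594 CPM in IMQ, 484 and 615 in IMQ+VEH and 544 in IMQ+IDMF (-0.11, SE 0.39, 95% interval of the fold 0.514 to 1.67). Adig, adipogenin, a small protein of fat cells (chromosome 2, 158502612 to 158508198), had 10.4 CPM in IMQ, 30.4 and 35.9 in IMQ+VEH and 41.2 in IMQ+IDMF (1.68, SE 0.32, adjusted p = 0.0379). Car3 had 729 CPM in IMQ, 2765 and 2041 in IMQ+VEH and 2265 in IMQ+IDMF (1.72, SE 0.60, adjusted p = 0.353). It was lowest in IMQ, as were Pparg and Adig. Nnat, neuronatin, had 27, 78, 21 and 69 counts in IMQ, IMQ+VEH replicates 1 and 2 and IMQ+IDMF, so that IMQ and IMQ+VEH replicate 2 were alike and the other libraries higher.

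Brown-like genes were poorly covered by the list. Cidea, which brown fat and mouse sebaceous glands both express, had 37.8 CPM in IMQ, 50.6 and 85.0 in IMQ+VEH and 74.3 in IMQ+IDMF (log2 fold change 0.84, SE 0.33, adjusted p = 0.452). Its order, with IMQ+VEH replicate 2 highest, was unlike that of Plin1 and Cidec and was shared by Dgat1 and Mgll. Of 12 other brown and beige fat genes 0 passed the threshold in either direction, with Cox8b and Cox7a1, mitochondrial subunits that muscle also expresses, at log2 fold changes of 0.61 (SE 0.27) and 0.83 (SE 0.30).

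**Figure D3:**
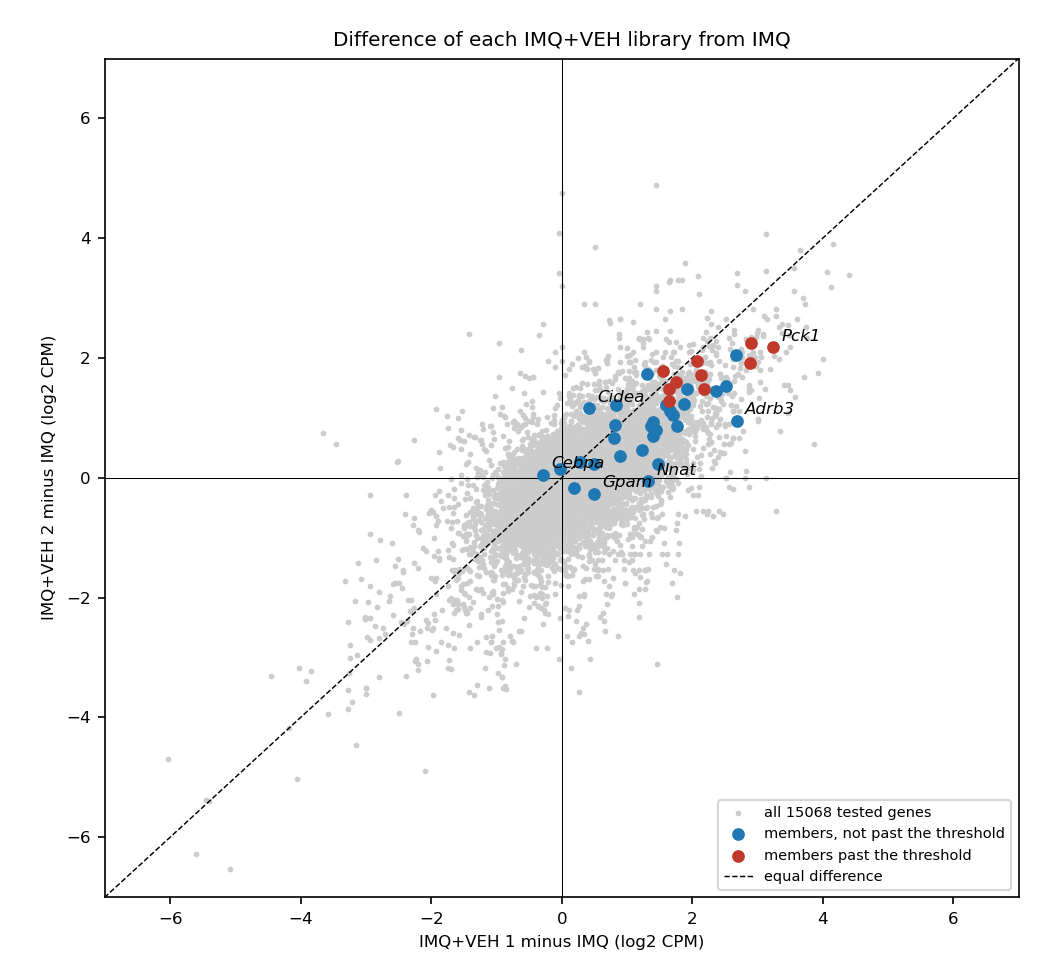
Log2 CPM difference of IMQ+VEH replicate 1 from IMQ (horizontal) against that of replicate 2 (vertical), 1 point per gene, with all 15068 tested genes in grey, the listed genes in blue and those past the threshold in red. The 10 genes in red lie up and to the right, most of them below the dashed line of equal difference.

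A wider set of genes was read beside the list. Of 12 other adipocyte genes measured, 5 were higher in IMQ+VEH than in IMQ and 0 lower, with a median log2 difference of 1.92. Of all tested genes 0.338% were called higher and 0.325% lower, with a median of -0.01. The 5 other adipocyte genes were Rbp4, a retinol carrier (log2 fold change 3.01, SE 0.43), Cyp2e1 (2.73, SE 0.43), Tusc5, which takes part in glucose carrier traffic (2.62, SE 0.50), Mrap (2.60, SE 0.52) and Angptl4, an inhibitor of lipoprotein lipase (2.05, SE 0.40). Rbp4 had 3.94 CPM in IMQ, 40.4 and 22.9 in IMQ+VEH and 35.5 in IMQ+IDMF. Among 9 other fatty acid synthesis genes 0 passed, with log2 fold changes of 1.22 (SE 0.64) for Scd1, the main desaturase, and 0.998 (SE 0.40) for Elovl6, an elongase. Among 8 other droplet genes 0 passed (median difference 0.02), with Plin2, the perilipin of most tissues, at 1.196 (SE 0.37) and Abhd5, the cofactor of adipose triglyceride lipase, at -0.17 (SE 0.30). The 9 fatty acid oxidation genes (median 0.15) and the 10 preadipocyte genes (median -0.11) also had 0 calls. For fatty acid oxidation, Hadha and Hadhb, the subunits of the trifunctional protein, had -0.18 (SE 0.31) and -0.08 (SE 0.32).

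**Figure D4:**
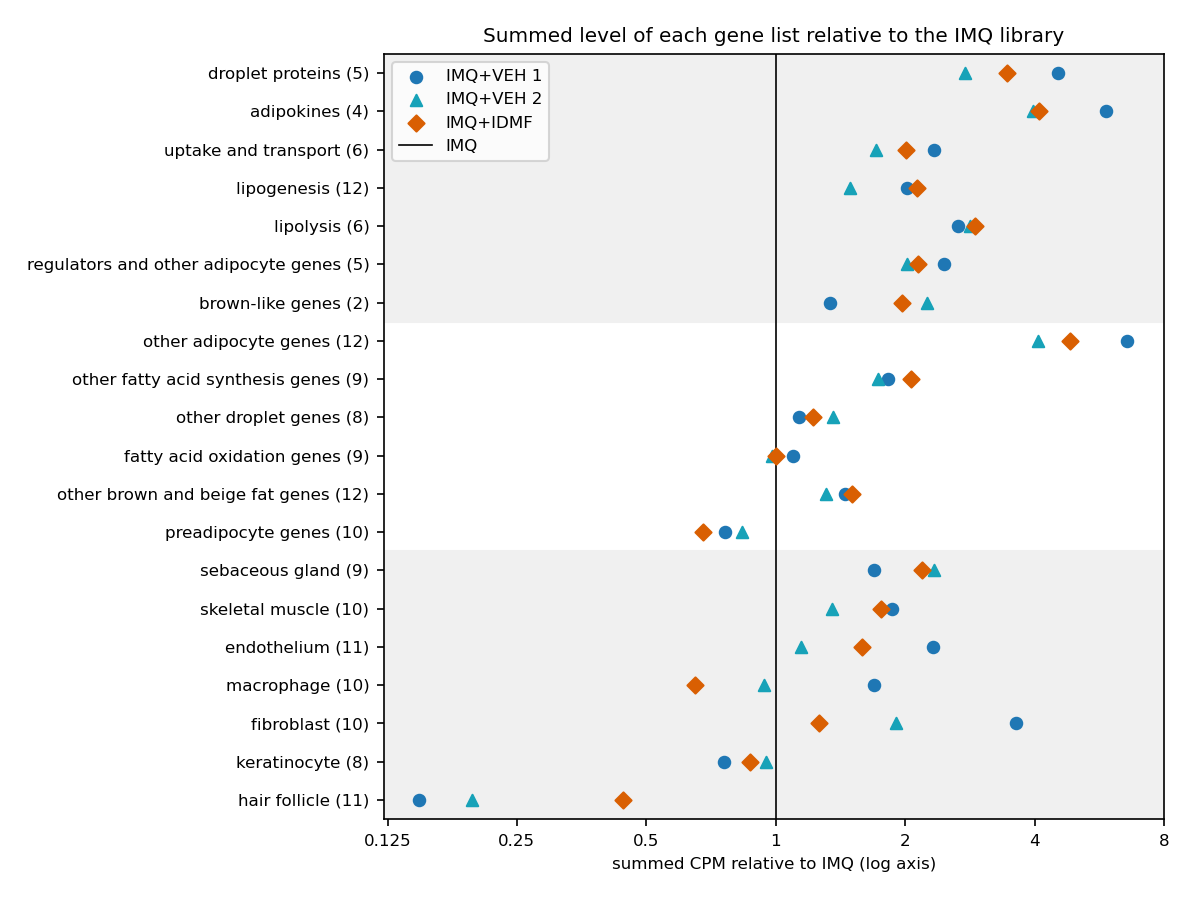
Summed CPM of each gene list in IMQ+VEH replicates 1 and 2 and IMQ+IDMF relative to the IMQ library (line at 1), on a log axis, with the number of genes in brackets. Adipokines and other adipocyte genes lie farthest to the right, at 3.96 to 5.87 and 4.08 to 6.55 times IMQ.

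Markers of several other cell types were also higher in IMQ+VEH than in IMQ, and those of others were mixed or were not. By edgeR 1 of 9 sebaceous gland markers was called higher, Dgat2l6 (log2 fold change 2.02, SE 0.33, adjusted p = 0.0169). Of 10 hair follicle markers tested 3 were called lower, and the other cell type lists had 0 calls. Of all tested genes 0.338% were called higher and 0.325% lower. The summed CPM of 9 sebaceous gland markers was 1284 in IMQ, 2171 and 2996 in IMQ+VEH and 2811 in IMQ+IDMF. All 9 of 9 were above IMQ in both IMQ+VEH libraries, against 33.6% of all tested genes. Skeletal muscle markers (10) summed to 13643 in IMQ, 25436 and 18426 in IMQ+VEH and 23970 in IMQ+IDMF, with 9 of 10 above IMQ in both. Endothelial markers (11) summed to 139 in IMQ, 322 and 159 in IMQ+VEH and 220 in IMQ+IDMF, with 9 of 11 above IMQ in both. Fibroblast markers (10) had 1890, 6843, 3602 and 2381 CPM in the same order, with 8 of 10 above. Macrophage markers (10) had 713, 1205, 669 and 462 CPM, so that the sums of IMQ+VEH replicate 2 and IMQ+IDMF lay below IMQ. Yet 6 of the 10 were above IMQ in both IMQ+VEH libraries. Keratinocyte markers (8) had their highest sum in IMQ, at 60250, 45620, 57120 and 52621 CPM, with 0 of 8 above IMQ in both IMQ+VEH libraries. Not every gene of that list peaked in IMQ, as Krt10 had 18300 CPM in IMQ and 20823 in IMQ+VEH replicate 2. Hair follicle markers (11) also had their highest sum in IMQ, at 72.4, 10.7, 14.2 and 32.02 CPM. Here too some genes did not peak in IMQ, as Hoxc13 had 5.36 CPM in IMQ and 7.96 in IMQ+IDMF. Of the hair follicle markers Krt72 had a count of 0 in all 3 lotion-treated libraries, Krt85 in both IMQ+VEH libraries and Krt35 in IMQ+VEH replicate 2. No marker of the other cell type lists was at 0 in any library. The part of these tissues in the differences of the listed genes was not tested.

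The list was also split by hand, with earlier results of these data known, and no tissue was measured. Of the 39 genes, 15 were set apart as also known in sebaceous gland, muscle or blood vessels. They were Fasn, Acly, Acaca, Dgat1, Dgat2, Acsl1, Cidea, Plin5, Cd36, Lpl, Cav1, Car3, Slc2a4, Fabp4 and Pnpla3. Of these 0 were called, with a median log2 difference of 0.85. The 24 others held all 10 calls, with a median of 1.61. They include Cebpa, which the epidermis also expresses, so the place of the calls describes this sorting and is no test of tissue. The fold of the summed CPM over IMQ in IMQ+VEH replicates 1 and 2 was 5.87 and 3.96 for adipokines and 4.54 and 2.76 for droplet proteins. It was 2.65 and 2.84 for lipolysis genes, 2.34 and 1.71 for uptake and transport genes, 2.02 and 1.49 for lipogenesis genes and 2.47 and 2.02 for regulators and other genes. Among the other cell types it was 3.62 and 1.91 for fibroblast markers, 2.32 and 1.15 for endothelial, 1.86 and 1.35 for muscle and 1.69 and 2.33 for sebaceous gland markers. Uptake, lipogenesis and lipolysis genes thus lay in the range of these lists in replicate 1. These sums are descriptions, and their differences were not tested.

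IMQ+IDMF and IMQ+VEH differ by the compound in the lotion. By edgeR 0 of the 39 genes were called, and 0 of all 15068 (0%). At an unadjusted p under 0.05 the counts were 0 of 39 and 306 of 15068 (2.03%), and DESeq2 also called 0. The median log2 difference over the 39 genes was 0.09, being -0.08 to IMQ+VEH replicate 1 and 0.26 to replicate 2. IMQ+IDMF lay between the IMQ+VEH libraries for 28 of the 39 genes, against 44.8% of all tested genes, so that for these the direction depends on which IMQ+VEH library is kept. It lay above both for 8 (27.7% of all genes) and below both for 3 (27.5%).

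The intervals show which sizes of effect remain possible if the single IMQ+IDMF library varies like the IMQ+VEH pair. Their widths rest largely on the spread over all genes, with 11.2 prior degrees of freedom against 1 residual. For Plin1 the fold of IMQ+IDMF over IMQ+VEH was 0.965 (95% interval 0.567 to 1.64), for Retn 0.989 (0.665 to 1.47) and for Pparg 1.06 (0.673 to 1.68). These genes, all called against IMQ, had point values near 1 here, and the intervals include changes in either direction. Adipoq had 0.748 (0.473 to 1.18), and it was 1 of the 3 genes below both IMQ+VEH libraries, with G0s2 and Pnpla3. Pnpla3 had 47.2 CPM in IMQ, 66.8 and 55.1 in IMQ+VEH and 40.7 in IMQ+IDMF, its lowest library (log2 fold change -0.58, SE 0.28, adjusted p = 1).

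The 8 genes with IMQ+IDMF above both IMQ+VEH libraries were Acly, Acaca, Fasn, Agpat2, Thrsp, Pparg, Adig and Nnat. Thrsp had one of the largest log2 fold changes, at 0.58 (SE 0.27, adjusted p = 1), and Nnat, from few counts, 0.68 (SE 0.75, adjusted p = 1). Of the 12 lipogenesis genes 5 lay above both and 0 below both, and of the 9 other fatty acid synthesis genes 7 lay above both and 1 below both. Of all tested genes 27.7% lay above both and 27.5% below both. For Fasn the difference to replicate 1 was 0.05 on the log2 scale and to replicate 2 it was 0.95, so its fold rests on replicate 2. The same differences were 0.08 and 0.60 for Acaca and 0.16 and 0.53 for Agpat2. They were 0.20 and 0.22 for Acly and 0.51 and 0.66 for Thrsp. In the same library fibroblast and macrophage markers were below both IMQ+VEH libraries for 10 of 10 genes each. Hair follicle markers were above both for 10 of 10 tested and keratinocyte markers for 5 of 8.

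IMQ+IDMF against IMQ is 1 library against 1 and has no replicate check. IMQ+IDMF was above IMQ for 37 of the 39 genes, against 50.2% of all tested genes, and at least 2-fold above for 26, against 6.78%. It was at least 2-fold below for 0, against 4.51%. Folds ran from 0.864 (Pnpla3) to 5.92 (Pck1), with a median of 2.76. The same median was 2.92 in IMQ+VEH replicate 1 and 2.16 in replicate 2. These comparisons share the IMQ library.

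The 3 lotion-treated libraries, with or without the compound, were also set against IMQ as 1 group. Of the 39 genes, 3 were higher and 0 lower: Cidec (log2 fold change 2.57, SE 0.32, adjusted p = 0.0351), Retn (2.01, SE 0.19, adjusted p = 0.0156) and Pparg (1.71, SE 0.23, adjusted p = 0.0444). The background was 0.133% higher and 0.232% lower of 15068 genes, 0.365% in all. At an unadjusted p under 0.05 the counts were 30 of 39 and 12.4%. The fitted folds were close to those for IMQ+VEH alone, but the count of calls depended on the libraries kept. It was 24 without IMQ+VEH replicate 1, 15 without IMQ+VEH replicate 2 and 9 without IMQ+IDMF, all higher. Over all genes the counts rose as well, to 498, 92 and 100 under the same settings, against 55 with every library. Pparg was no longer called without IMQ+VEH replicate 2 (adjusted p = 0.0526) or without IMQ+IDMF (adjusted p = 0.0533).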

How the data were processed

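RNA from 4 libraries of mouse back skin was read in single-end runs of 50 cycles, per the labels' protocols. For each library the authors deposited raw read counts and FPKM per gene symbol, per the file headers. TopHat2, Cufflinks and HTSeq, with GRCm38 and mm10 as builds, stand in the submitters' processing notes. The sources used here give no versions, annotation, strand setting or rule for multiply mapped reads.

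Counts were fitted with edgeR 4.0.16 (R 4.3.3) by its two-sided quasi-likelihood test, with TMM, 1 mean per group, and the filterByExpr filter (minimum count 10, minimum total 15). The fit tested 15068 genes, with 1 residual degree of freedom (2 for the lotion-treated libraries as 1 group), and Benjamini-Hochberg adjustment over all of them. P-values rest on the spread of the IMQ+VEH pair, or of the 3 lotion-treated libraries where these form 1 group. Each gene's spread was moderated by that of all genes, with 11.2 prior degrees of freedom (5.21 for the lotion-treated libraries as 1 group). SE is the log2 fold change over the square root of F, and 95% intervals use residual plus prior degrees of freedom. Log2 CPM differences used a prior count of 2. Positions and overlaps came from GENCODE M21 (GRCm38), which held 40 of 40 genes. In it 10 listed genes share exon bases with a gene on the other strand. They are Plin4, Lipe, Mgll, Agpat2, Gpd1, Acsl1, Cebpa, Adrb3, Mlxipl and Nnat. Pnpla3 alone shares exon bases with a gene on its own strand.

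Of 171 list symbols 169 were found in the tables. The listed genes and gene lists were chosen with earlier results of these data known. Every listed gene may be named, and genes of other lists only if called or among the 2 most abundant, with exceptions named for an overlap or a count of 0. Full values were also printed for some listed genes outside that rule (Plin5, Acsl1, Gpam, Mgll and Adrb3), chosen after their values were seen. The other alternatives were DESeq2 1.42.0, its size factors, total counts, no filter, a minimum mean count of 50, FPKM in place of CPM, and leaving out libraries.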

Additional observations from a re-analysis of the deposited data

How the results depend on the processing

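The median log2 difference of the listed genes from IMQ kept its direction and stayed within the spread of the IMQ+VEH pair under every setting run, FPKM and left-out libraries included. That spread was the absolute median difference between the 2 IMQ+VEH libraries over the square root of 2. Leaving out 1 library of the same pair could hardly exceed it, so for those settings staying within it is no check. For IMQ+VEH against IMQ it ran from 1.11 without IMQ+VEH replicate 1 to 1.55 without replicate 2, among left-out libraries. For IMQ+IDMF against IMQ+VEH the corresponding values were 0.26 and -0.08, a change of sign. Counts of calls moved more. For IMQ+VEH against IMQ, DESeq2 called 19 of the listed genes and 202 genes in all, and no filter gave 21 and 424, where the reported counts were 10 and 100. All 10 listed genes were among those called in both. Total counts as library sizes lost Agpat2 and Pparg (adjusted p of 0.0620 and 0.0764). For IMQ+IDMF against IMQ+VEH, no filter gave 16 genes in all and 0 of the list. For the lotion-treated libraries against IMQ, with 3 and 55 as reported, DESeq2 gave 26 and 525, total counts 1 and 33, and no filter 13 and 144. Leaving out 1 lotion-treated library gave 9 to 24 listed genes and 92 to 498 genes in all. Of the settings with a test, total counts and a left-out library each changed 1 sign: Cebpa, IMQ+IDMF against IMQ+VEH, at 0.00063 with total counts, and Acsl1, lotion-treated against IMQ, which ran from -0.037 without IMQ+VEH replicate 1 to 0.135 without replicate 2. In that comparison Pparg was lost with total counts (adjusted p = 0.0628) and a minimum mean count of 50 (0.0532), and Cidec with total counts (0.0546). The cause was not tested. Without either IMQ+VEH library no residual degree of freedom was left in the 3-group fit, so these settings gave values and no test. With 1 or the other left out, the sign of IMQ+IDMF against IMQ+VEH changed for 28 of the 39 genes (Plin1 at 0.51 and -0.46, Pck1 at 0.38 and -0.67, without replicates 1 and 2). That of IMQ+VEH against IMQ changed for 5 (Acsl1, Gpam, Dgat2, Cebpa and Nnat), 0 of them called. No paired analysis was possible because only IMQ+VEH has more than 1 replicate. With Ucp1 at 0 or 1 count, a change of that gene was not detectable at this depth.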
